A study of Mus musculus with 18 samples.

Results

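Transcription factors and cofactors of blood cell development, 10 genes in all, were followed by RNA-seq through mouse blood cell differentiation and through the reprogramming of fibroblasts. They were the erythroid regulators *Gata1*, *Klf1*, *Gfi1b*, *Zfpm1* and *Nfe2*, and the genes encoding partners or relatives of TAL1, namely *Lyl1*, *Ldb1*, *Cbfa2t3*, *Tcf3* and *Tcf12*. The 10 genes were chosen by name. All 10 of them are among the 20495 genes of the fibroblast table, and 9 are among the 20310 genes of the table of differentiation stages. *Cbfa2t3* was not analysed here in the stages.

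Embryonic stem cells (ESCs) of strain 129 with a GFP reporter for *Brachyury* were differentiated in culture and sorted at successive stages. These were mesoderm (MES, Bry+/Flk1-), hemangioblast (HB, Bry+/Flk1+), hemogenic endothelium (HE, Tie2+/cKit+/CD41-), hematopoietic progenitors (HP, CD41+) and macrophages (MAC, CD11b+). For ESC, MES, HB, HP and MAC there were 2 samples each, which the authors combined into 1 value per stage, and the HE value was deposited with an earlier series. The other 8 samples were single libraries of mouse embryonic fibroblasts (MEFs), also labelled strain 129, taken at day 12 or day 21. They were untreated (uFIB) or had received *Scl* (*Tal1*) and *Lmo2* (SL), *Scl*, *Fli1*, *Gata2* and *Lmo2* (SFGL), or *Fli1*, *Gata2* and *Lmo2* (FGL). The MEFs were either wild type or came from iTal1-2A-GFP mice, in which rtTA and a TRE-TAL1 cassette allow TAL1 to be induced with doxycycline. The labels do not give which of these MEFs made each library, and transcripts of a vector and of the endogenous gene were not separated.

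TAL1 belongs to the basic helix-loop-helix proteins and binds E-box DNA as a dimer with an E protein, such as the products of *Tcf3* and *Tcf12*. LMO2 and LDB1 join this dimer to a GATA factor on the same stretch of DNA, and ETO2, encoded by *Cbfa2t3*, brings corepressors to the complex. GATA1, with its cofactor FOG1 encoded by *Zfpm1*, and the factors KLF1, GFI1B and NF-E2 are required for the formation of red cells, platelets or both.

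DNA on which TAL1 complexes assemble can hold a composite of part of an E-box and a GATA site a short distance apart. Promoter sequences from RefSeq (GRCm38.p6) were available for 9 of the 10 members, in 14 windows, with no entry for *Nfe2*. The 250 bases before each RefSeq start were searched on both strands for CTG followed after 8 or 9 bases by GATA, written CTGNNNNNNNNGATA or CTGNNNNNNNNNGATA. The arrangement was present in 3 of the 14 windows and in 4.01% of all 32851 promoters. The 3 windows were those of *Klf1*, *Gfi1b* and the *Cbfa2t3* start at 122699109. Another window of *Cbfa2t3* did not hold it, and which start the cells used was not examined. The 3 stretches are shown because they hold both parts of the composite close to the start of genes that were high in HP or in reprogrammed fibroblasts, with CTG and GATA in capitals.
Klf1, chr8:84901896-84901925, minus strand, opposite to the gene: ctgattggCTGtcttccctGATAagaccca
Gfi1b, chr2:28622091-28622120, minus strand, which is the strand of the gene: gaagcttCTGtgaagttttGATAagcaaat
Cbfa2t3, chr8:122699204-122699233, plus strand, opposite to the gene: cagccagCTGtgtcacagtGATAatgcggt

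The match lay 79 to 65 bases before the RefSeq start of *Klf1* and 131 to 116 bases before that of *Gfi1b*. It lay 117 to 102 bases before the *Cbfa2t3* start at 122699109. CTG and GATA were 8 bases apart at *Klf1* and 9 bases apart at the other genes. In all 3 stretches the GATA letters are part of a longer GATA site, TGATAA, which was present in the windows of the same 3 members and in 7.94% of all promoters. These are the same matches and add nothing to the count of the composite. The form AGATAA was present in 1 of the 14 windows and in 9.99% of all promoters. Either form was present in 4 of the 14 windows and in 16.6% of all promoters. An E-box of any kind, CANNTG, was present in 10 of the 14 windows, close to its share of 66.2% of all promoters. The E-boxes CAGCTG and CAGATG were present in 2 windows each, and in 13% and 14.4% of all promoters. The KLF box CCNCNCCC was present in 12 of the 14 windows, that of *Klf1* not among them, and in 45.9% of all promoters. These matches describe letters in the windows, and no binding was measured here.

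Values are FPKM, fragments scaled to the length of the transcript and to the mapped fragments of the library, so that levels can be compared between genes within a table. The 2 tables were normalized separately and levels were not compared between them. With 1 value per stage or condition and day there was no replicate error for any difference, and no test was made. A gene is called higher or lower where log2(FPKM + 1) differed by at least 1, a 2-fold change on that scale, and at least 1 of the 2 values reached 1 FPKM. On this scale the change of a gene with low values comes out too small. In bulk samples of this kind, fewer cells of a type and less RNA per cell cannot be told apart.

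Markers followed the labels in the main for HE, HP and MAC, and no marker list was used for ESC, MES or HB. The summed FPKM of 10 endothelial markers was highest in HE (472), that of 22 red cell genes in HP (7284) and that of 9 macrophage markers in MAC (3474). Among the stages, the fibroblast markers also summed highest in HE (359 FPKM). Those of mast cells and eosinophils summed highest in MAC (54.8 FPKM). In untreated fibroblasts the 10 fibroblast markers summed to 9354 FPKM at day 12 and 7155 FPKM at day 21. Libraries labelled FGL stood apart from their label. *Tal1*, which is not in this cocktail, was at 7.04 FPKM in FGL at day 12 and 0.0705 FPKM at day 21, against 0.0414 and 0.415 FPKM in uFIB. *Fli1*, which is in it, was at 3.35 FPKM in FGL at day 21 and 3.02 FPKM in uFIB, whereas *Gata2* (35.1 against 2.13 FPKM) and *Lmo2* (66.5 against 2.28 FPKM) were high in the FGL library.

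*Gata1*, *Klf1*, *Gfi1b* and *Nfe2* reached their highest values in HP and were far lower at every other stage. *Gata1* (X: 7959260-7967910, mm10), the central transcription factor of red cells and megakaryocytes, started at 1.33 FPKM in ESC and 0.0470 FPKM in MES, was at 1.07 FPKM in HB and 1.51 FPKM in HE, reached 37.2 FPKM in HP and was at 0.884 FPKM in MAC. *Klf1* (chromosome 8: 84901928-84905295), an activator of globin genes, was at 0.176, 0.0836, 0.224, 1.08, 28.4 and 0.339 FPKM from ESC to MAC. *Gfi1b* (chromosome 2: 28609450-28621982), a repressor that recruits the LSD1 demethylase, was at 0.196, 0.101, 0.802, 1.79, 23.4 and 0.319 FPKM. In these 3 genes HP stood alone, at 24.7 times the HE value in *Gata1*, 26.2 times in *Klf1* and 13.1 times in *Gfi1b*, and HE was the next highest stage each time. *Nfe2* (chromosome 15: 103248218-103255416), the blood-restricted subunit of NF-E2 that acts in platelet formation, was at 0.635, 0.0656, 1.13, 4.99, 54.5 and 4.63 FPKM. Its HP value was 10.9 times that in HE, and HE and MAC lay close together.

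*Zfpm1* and *Lyl1* differed from these genes in when they appeared. *Zfpm1* (chromosome 8: 122282141-122337247), which encodes the GATA cofactor FOG1, was at 2.11, 3.17, 16.4, 22.4, 52.3 and 2.91 FPKM from ESC to MAC. It was already well above the ESC and MES values in HB, where *Gata1* was at 1.07 FPKM. *Lyl1* (chromosome 8: 84701457-84704716), the closest relative of *Tal1*, was at 0.162, 0.207, 1.51, 11.9, 31.7 and 22.7 FPKM. It was the only 1 of the 6 genes highest in HP that stayed high in macrophages, at 71.5% of its HP value as deposited. There *Nfe2* kept 8.49%, *Zfpm1* 5.56%, *Gata1* 2.38%, *Gfi1b* 1.36% and *Klf1* 1.19%. The HP value of *Lyl1* was 1.398 times that in MAC, the next highest stage, and with 1 value per stage it cannot be said whether such a gap exceeds the spread between samples.

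**Figure D1:**
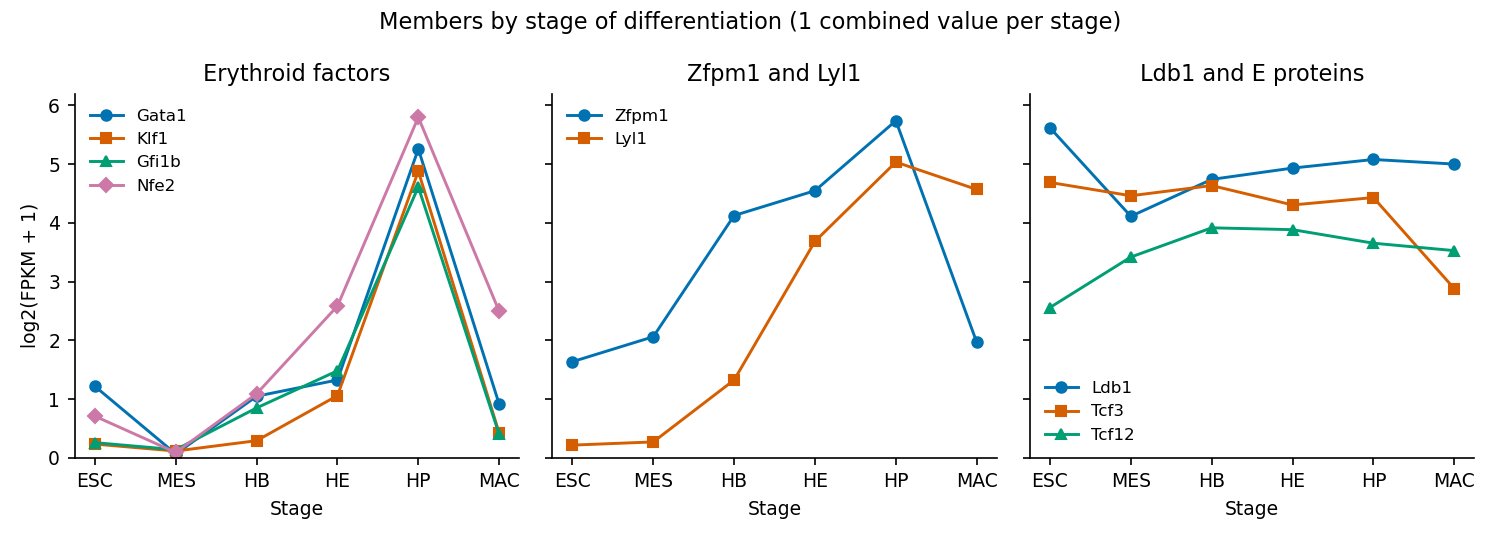
Expression of the 9 members found in the stage table, as log2(FPKM + 1) on the y axis, at the 6 stages of differentiation on the x axis. Each point is the authors' combined value for a stage, without error bars. *Gata1*, *Klf1*, *Gfi1b* and *Nfe2* peak in HP (left), *Zfpm1* and *Lyl1* rise before HP and only *Lyl1* remains high in MAC (middle), and *Ldb1*, *Tcf3* and *Tcf12* lie in a narrower range (right).

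Genes for the general partners of TAL1 were present at all stages. *Ldb1* (chromosome 19: 46032601-46045211), the adaptor that links such complexes to each other, was at 48.1, 16.3, 25.7, 29.5, 32.8 and 31.0 FPKM from ESC to MAC. *Tcf3* (chromosome 10: 80409165-80433653), which encodes the E proteins E12 and E47, was at 24.7, 21.0, 23.8, 18.7, 20.5 and 6.36 FPKM. *Tcf12* (chromosome 9: 71844252-72111819), which encodes the E protein HEB, was at 4.89, 9.68, 14.1, 13.8, 11.6 and 10.5 FPKM. *Ldb1* and *Tcf3* were highest in ESC and *Tcf12* in HB. Of these genes, *Tcf3* alone was called lower in MAC than in HP. As deposited it kept 31.0% of its HP value there, while *Ldb1* kept 94.6% and *Tcf12* 90.9%. These shares were lower after the upper quartile scaling described below. In GENCODE M21, 177 of the 4606 exonic bases of *Ldb1* (3.84%) overlap *Pprc1* on the opposite strand, and reads there may belong to either gene.

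The start sites that make up *Ldb1* differed in pattern between stages. The authors' table divides *Ldb1* between the transcription start sites TSS10165 and TSS10166. TSS10165 was at 5.46, 5.81, 8.10, 7.36, 16.8 and 2.53 FPKM from ESC to MAC. TSS10166 was at 42.6, 10.5, 17.6, 22.1, 16.0 and 28.4 FPKM. TSS10165 thus held 51.1% of the gene's value in HP, 11.4% in ESC and 8.18% in MAC, and in HP alone it lay above TSS10166. *Tcf12* was divided among 3 start sites, of which TSS21217 held between 41.0% and 52.3% of the value at the different stages. TSS21216 of this gene held 26.7% in ESC and 42.4% in MAC, and TSS21215 held between 15.1% and 32.2%. Cufflinks assigns shared reads to start sites by estimation, so that these shares are less certain than the sums.

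**Figure D2:**
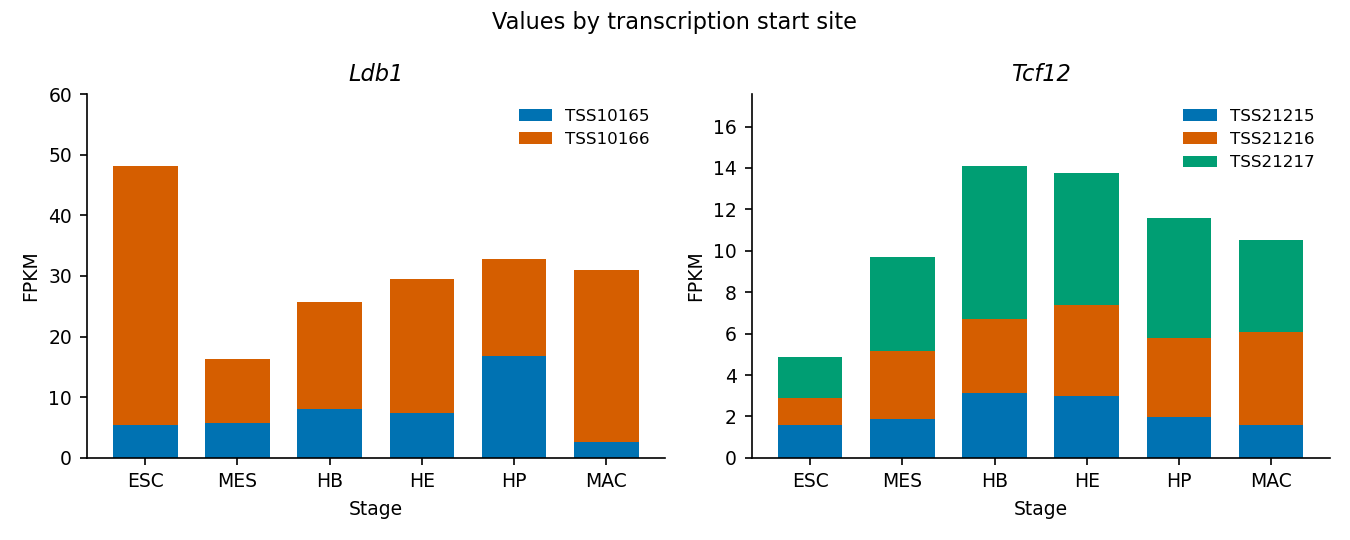
Values of *Ldb1* (left) and *Tcf12* (right) by transcription start site, in FPKM on the y axis, at the 6 stages on the x axis. Bars are stacked so that their full height is the gene's value, without error bars, and the y axes differ in scale. In *Ldb1* the lower segment, TSS10165, reaches 16.8 FPKM in HP and is 2.53 FPKM in MAC.

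The sums of the E proteins and of the TAL1 relatives that dimerize with them changed unequally along the path. *Tcf3* and *Tcf12* together gave 29.6, 30.7, 37.9, 32.5, 32.1 and 16.9 FPKM from ESC to MAC. *Tal1* and *Lyl1* together gave 1.64, 0.910, 21.4, 41.5, 89.1 and 40.8 FPKM. The ratio of the former to the latter was 18.0 in ESC, 33.7 in MES, 1.77 in HB, 0.783 in HE, 0.361 in HP and 0.413 in MAC. Transcripts of the TAL1 relatives were thus below those of the E proteins until HB and above them from HE on. *Id1* to *Id4*, which encode inhibitors that bind E proteins and keep them from DNA, summed to 169, 176, 198, 119, 29.3 and 321 FPKM. Their sum was lowest in HP and, as deposited, highest in MAC, where *Id2* alone was at 313 FPKM. The upper quartile of genes above 0 was 18.0 FPKM in MAC and 11.4 FPKM in HB, so that the lead of MAC over HB depends on the scaling. These are transcript sums, and protein and dimers were not measured.

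**Figure D3:**
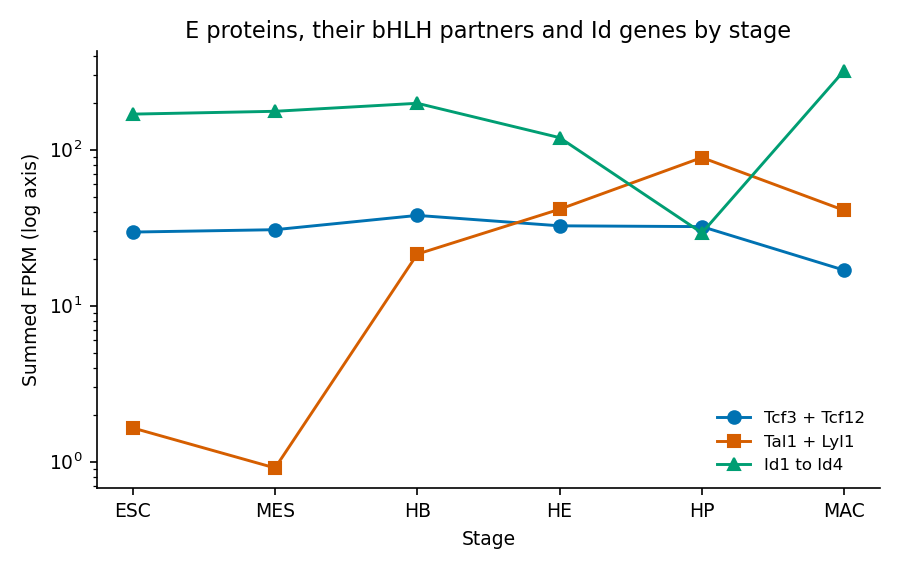
Summed FPKM on a log y axis of *Tcf3* and *Tcf12*, of *Tal1* and *Lyl1*, and of *Id1* to *Id4*, at the 6 stages on the x axis, 1 combined value per stage and no error bars. The line of *Tal1* and *Lyl1* crosses that of the E proteins between HB and HE, and the *Id* sum falls to 29.3 FPKM in HP.

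Taking each stage with the one before it, the members changed in steps. From ESC to MES *Gata1* and *Ldb1* were called lower, by -1.15 and -1.51 on the log2(FPKM + 1) scale, against 7.3% of the genes tested, and 0 members were called higher, against 6.95%. The ESC value also held embryonic globin transcripts, with *Hbb-bh1* at 29.9 FPKM in ESC and 0.268 in MES and *Hba-x* at 12.8 FPKM and 0, and 4 of the 22 red cell genes were called lower at this step. Their part in the fall of *Gata1* was not tested. From MES to HB *Zfpm1* (2.06) and *Lyl1* (1.05) were called higher, against 2.53% of genes, and 0 were called lower, against 3.3%. The low values of *Gata1* and *Nfe2* changed by 0.98 and 0.998 at this step, just under the limit, and both passed it after scaling to the upper quartile. From HB to HE *Nfe2* (1.49) and *Lyl1* (2.36) were called higher, against 8.67% of genes, and 0 members were called lower, against 4.83%. These counts at low values depend on the pseudocount.

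From HE to HP 6 of the 9 members were called higher, against 5.14% of the genes tested, and 0 lower, against 9.59%. The changes were 3.93 in *Gata1*, 3.82 in *Klf1*, 3.21 in *Nfe2*, 3.13 in *Gfi1b*, 1.35 in *Lyl1* and 1.19 in *Zfpm1*. *Ldb1* (0.15), *Tcf3* (0.13) and *Tcf12* (-0.23) moved little. The median over the 9 members was 1.35 and that over all tested genes -0.09. The HE column belongs to an earlier deposit, and without it the same 6 members were still highest in HP.

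From HP to MAC 6 members were called lower, against 13.9% of genes, and 0 higher, against 33.4%. At this step the median of all tested genes moved by 0.45 as deposited and by -0.21 after upper quartile scaling, after which 19.5% of genes were called higher and 24.8% lower. Changes are therefore also given relative to that median as deposited. *Klf1* changed by -4.46 (relative to the median -4.90), *Gata1* by -4.34 (-4.79), *Gfi1b* by -4.21 (-4.66), *Zfpm1* by -3.77 (-4.22), *Nfe2* by -3.30 (-3.75) and *Tcf3* by -1.55 (-1.998). *Lyl1* changed by -0.47 (-0.91) and was called lower only after upper quartile scaling, at -1.17. *Ldb1* changed by -0.08 (-0.53) and *Tcf12* by -0.13 (-0.57). After upper quartile scaling both changed by -0.79, and they were not called under either scaling.

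Families and target genes of the members were taken as lists, with the counts for all genes as above. Of 22 red cell genes, which encode globins, heme enzymes and membrane proteins and include known targets of GATA1 and KLF1, 20 were called higher and 0 lower from HE to HP, with a median change of 2.43. The embryonic globin gene *Hbb-bh1* reached 5182 FPKM in HP, from 167 in HE, and *Hba-x* 1071 FPKM, from 27.4. From HP to MAC 17 of the 22 were called lower and 2 higher. The other families were counted at the step from HE to HP, where 5.14% of all genes tested were called higher and 9.59% lower. In lists this small, 0 or 1 called higher is close to that share and sets no list apart. Of 6 GATA and FOG genes other than the members, 5 reached 1 FPKM, with 0 called higher and 2 lower. *Gata2* was at 4.04 FPKM in HE and 3.52 in HP. Of 16 *Klf* genes besides *Klf1*, 13 reached it, with 0 higher and 5 lower. Of 8 genes for the small MAF partners and relatives of NF-E2, 7 reached it, with 0 higher and 1 lower. All 8 genes for GFI1 and the LSD1 corepressor reached it, with 0 called in either direction. Among 12 further genes of the TAL1 complex and its relatives, 10 reached it, with 1 higher and 1 lower. The median changes of these lists were, in this order, -0.66, -0.53, -0.02, -0.32 and -0.18, beside 1.35 for the members.

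Markers of other lineages also moved at this step. Of 10 endothelial markers, 10 were called lower from HE to HP, with summed values of 472 and 101 FPKM. Of 10 megakaryocyte markers, 7 were called higher, and *Itga2b*, which encodes the sorting marker CD41, went from 19.5 to 62.5 FPKM. The megakaryocyte sum was between 0.391 and 1.68 FPKM up to HB, 20.2 in HE, 105 in HP and 292 in MAC, where *Pf4* contributed 274 FPKM. Of 6 myeloid regulators, 5 were called higher from HE to HP and 6 from HP to MAC, and *Sfpi1*, the gene of PU.1, was at 0.451 FPKM in HE, 16.7 in HP and 111 in MAC. Macrophage markers summed to 20.3 FPKM in HP, and mast cell and eosinophil markers to 17.1 FPKM, of which *Kit* made up 16.9. The part of the cell mixture in these values was not tested.

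In the fibroblasts, 7 of the 10 members were called higher in SL and in SFGL than in uFIB on both days. At day 12 *Gata1* was listed at 0 in uFIB and had 19.9 FPKM with SL, 23.4 FPKM with SFGL and 3.69 FPKM with FGL. The values at day 21 were 0.0225 FPKM, 29.9 FPKM, 49.5 FPKM and, in FGL, 0. *Klf1*, in the same order, was at 0.123, 23.6, 24.9 and 5.19 FPKM at day 12 and at 0.115, 40.7, 65.5 and 0.0700 FPKM at day 21. *Gfi1b* was listed at 0 in uFIB on both days, and in the treated libraries was at 15.7, 20.1 and 3.75 FPKM at day 12 and at 24.9, 41.5 and 0.0613 FPKM at day 21. These 3 genes were near 0 in both untreated libraries, high in SL and SFGL on both days, and between 3.69 and 5.19 FPKM in FGL at day 12.

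*Nfe2* reached the highest value of any member in the fibroblast table. It was at 0.149, 142, 160 and 16.5 FPKM at day 12 and at 0.783, 99.7, 145 and 0.890 FPKM at day 21, again in the order uFIB, SL, SFGL, FGL. *Zfpm1* was at 8.45, 37.1, 33.1 and 14.4 FPKM at day 12 and at 6.33, 45.2, 55.3 and 7.33 FPKM at day 21. Unlike the other genes that were called, *Zfpm1* was well above 0 in untreated fibroblasts, and its change in SL was 2.01 at day 12 and 2.66 at day 21 on the log2(FPKM + 1) scale.

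Of the partners of TAL1, *Lyl1* was at 0.0342, 63.7, 70.9 and 5.73 FPKM at day 12 and at 0.311, 38.9, 43.1 and 0.0583 FPKM at day 21. *Cbfa2t3* (ETO2), for which 3.52% of the exonic bases are shared with *Gm10612* on the opposite strand, was at 0.0517, 17.5, 23.6 and 2.85 FPKM at day 12 and at 0.0568, 15.3, 19.5 and 0.101 FPKM at day 21. In both genes SFGL was highest and SL next on each day. *Ldb1* lay between 49.0 and 62.6 FPKM over the 8 libraries and *Tcf3* between 23.0 and 29.6 FPKM, with untreated and reprogrammed libraries overlapping in both. For *Tcf12*, the values at days 12 and 21 were 36.9 and 31.8 FPKM in untreated cells, 20.8 and 19.8 FPKM with SL, 22.3 and 22.9 FPKM with SFGL, and 32.7 and 30.05 FPKM with FGL. Its 4 values in SL and SFGL were all below the 4 values in uFIB and FGL, at changes between -0.80 and -0.46 that did not reach the limit.

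**Figure D4:**
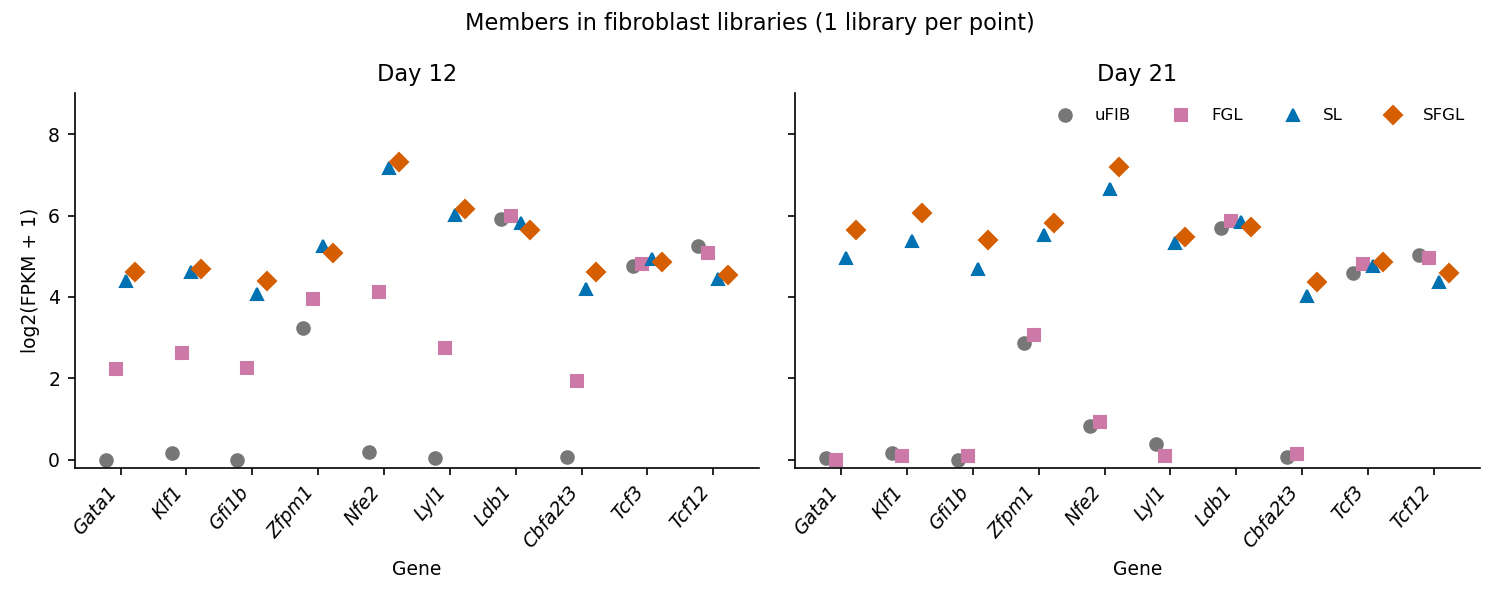
Expression of the 10 members, as log2(FPKM + 1) on the y axis, in the 8 fibroblast libraries at day 12 (left) and day 21 (right). Each point is 1 library, without error bars, with gray circles for uFIB, pink squares for FGL, blue triangles for SL and orange diamonds for SFGL. FGL lies between uFIB and SL at day 12 in the 7 members called in SL, and near uFIB at day 21.

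At day 12 the 7 members called higher in SL stood against 14.2% of all genes tested, and 0 were called lower, against 13.5%. Their changes in SL ran from 2.01 in *Zfpm1* to 6.96 in *Nfe2*. In SFGL at day 12 the count was also 7, against 14.7%, and 0 lower, against 17%. At day 21 the 7 members were called higher in SL, against 11.9% of genes, with 0 lower against 12.3%, and in SFGL, against 14%, with 0 lower against 15.9%. All comparisons of a day share the same uFIB library, so that they are not independent of each other. The 22 red cell genes had 19 called higher in SL at day 12 and 19 at day 21, with median changes of 2.90 and 3.43, and 0 called lower on either day.

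In the library labelled FGL, 6 members were called higher than in uFIB at day 12, against 2.96% of genes, and 0 lower, against 0.302%. *Zfpm1*, at a change of 0.70, was the member called in SL that was not called here. At day 21, 0 members were called higher, against 0.479%, and 0 lower, against 0.376%, with 4 members past the limit of 1 FPKM. From day 12 to day 21 in FGL, 6 members were called lower, against 4.06% of genes. At day 12 the FGL values were 8.99% of those in SL in *Lyl1*, 11.6% in *Nfe2*, 16.3% in *Cbfa2t3*, 18.5% in *Gata1*, 22.0% in *Klf1*, 23.9% in *Gfi1b* and 38.7% in *Zfpm1*. Their median was 18.5%, beside 26.6% over all 1749 genes called higher in SL at day 12. The middle 50% of those genes lay between 13.5% and 39.2%. The uFIB level was not taken off, and in these members it was near 0 except in *Zfpm1* (8.45 FPKM). A level in untreated cells raises such a share, so that the members' lower median cannot be read as a difference from the other genes. *Tal1* in this library was at 11.3% of its SL value, *Sfpi1* at 10.8% and *Lmo2*, which is in both cocktails, at 63.4%. Whether cells of another cocktail contributed to this library was not tested.

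Between day 12 and day 21 the members moved in different directions. In SL, *Gata1* was 1.505 times as high at day 21 as at day 12, *Klf1* 1.72 times, *Gfi1b* 1.59 times and *Zfpm1* 1.22 times. In SFGL the same ratios were 2.11, 2.63, 2.07 and 1.67. *Lyl1* in contrast was at 0.610 of its day 12 value in SL and 0.608 in SFGL, *Nfe2* at 0.703 and 0.907, and *Cbfa2t3* at 0.873 and 0.827. The erythroid factors other than *Nfe2* were thus higher at the later day in both cocktails, and *Nfe2*, *Lyl1* and *Cbfa2t3* were lower. The median of all tested genes also moved, by -0.10 in SL and -0.085 in SFGL. Relative to it, the change in SL and SFGL was -0.60 and -0.62 in *Lyl1*, -0.40 and -0.055 in *Nfe2*, and -0.081 and -0.18 in *Cbfa2t3*. The falls of *Nfe2* in SFGL and of *Cbfa2t3* in SL were thus close to that of the median. The ratios of *Ldb1*, *Tcf3* and *Tcf12* lay between 0.882 and 1.06. Only *Gata1*, *Klf1* and *Gfi1b* in SFGL passed the 2-fold limit, as 3 members called higher against 2.2% of genes and 0 lower against 2.75%. *Gata1* (1.05) and *Gfi1b* (1.01) were only just past it. In SL 0 were called higher, against 1.76%, and 0 lower, against 2.93%.

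**Figure D5:**
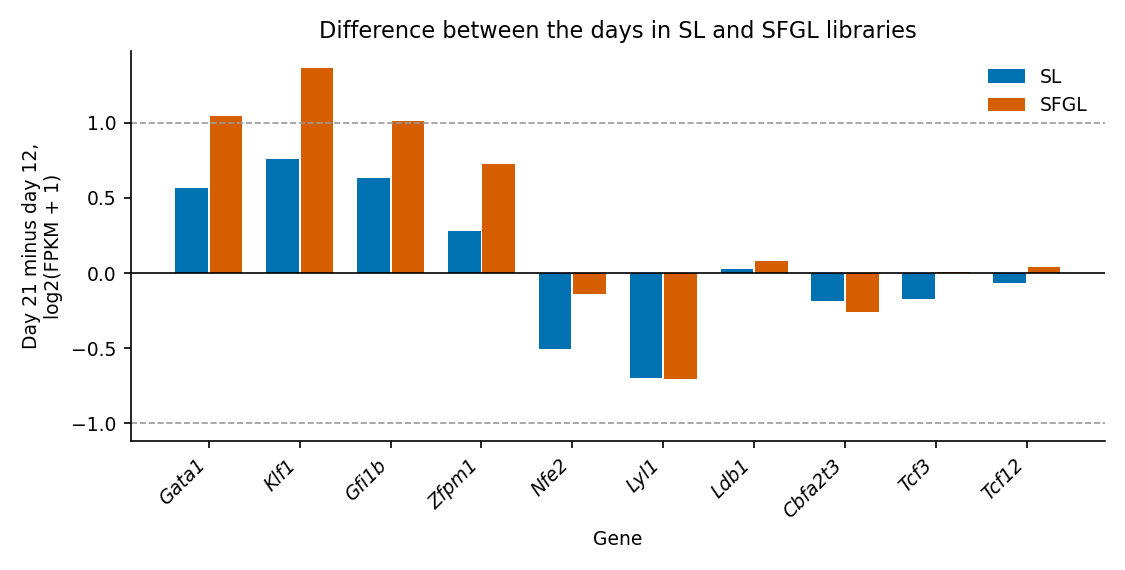
Difference of log2(FPKM + 1) between day 21 and day 12 on the y axis, for the 10 members on the x axis, in SL (blue) and SFGL (orange). Each bar is the difference of 2 libraries, without error bars, and dashed lines mark the 2-fold limit. *Gata1*, *Klf1*, *Gfi1b* and *Zfpm1* lie above 0 in both cocktails and *Nfe2*, *Lyl1* and *Cbfa2t3* below 0.

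Markers and depth also differed between these libraries. Of 10 fibroblast markers, 10 were called lower than in uFIB with either cocktail at day 12 and 8 at day 21, with summed values in SL and SFGL of 3074 and 2494 FPKM at day 12 and of 2688 and 2046 FPKM at day 21, and 0 were called in FGL on either day. The part of this fall in the changes of the members was not tested. Relative to uFIB at day 12, the depth estimated from the most frequent ratio of low values was 1.56 for SL and 1.14 for SFGL of that day, and 0.609 and 0.776 at day 21. The 9 mast cell and eosinophil markers summed to 2.20, 1682, 5852 and 575 FPKM at day 12, in the order uFIB, SL, SFGL, FGL, and to 2.38, 2775, 10833 and 2.80 FPKM at day 21, with 8 of 9 called higher in SL on both days. *Prg2*, which encodes the major basic protein of eosinophil granules, was the highest of them and reached 7901 FPKM in SFGL at day 21. Eosinophils and mast cells also use *Gata1*, and the part of such cells in the values of *Gata1*, *Zfpm1* or the other members was not tested. The 9 megakaryocyte markers summed to 1.75, 92.8, 148 and 15.2 FPKM at day 12 and to 2.32, 101, 180 and 1.83 FPKM at day 21. The red cell genes summed to 648 FPKM with SL and 405 FPKM with SFGL at day 12, and to 770 and 819 FPKM at day 21. The 9 macrophage markers summed to 94.0 and 75.4 FPKM at day 12 and to 45.3 and 51.5 FPKM at day 21.

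Values in SFGL were also set beside those in SL. At day 12 they lay between 89.1% of the SL value in *Zfpm1* and 135% in *Cbfa2t3*. At day 21, values in SFGL were 167% of those in SL in *Gfi1b*, 165% in *Gata1*, 161% in *Klf1*, 145% in *Nfe2*, 128% in *Cbfa2t3*, 122% in *Zfpm1*, 116% in *Tcf12*, 111% in *Lyl1*, 107% in *Tcf3* and 92.5% in *Ldb1*. At day 21, 0 of the 10 were called higher in SFGL, against 0.773% of all genes. At so low a share, a count of 0 does not set the members apart from other genes. *Gata2*, whose cDNA is part of the SFGL cocktail, was at 62.6 FPKM in SL and 132 in SFGL at day 21, whereas *Fli1*, which is also in that cocktail and not in SL, was at 34.4 and 27.8 FPKM.

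The E proteins and the TAL1 relatives were also compared in the fibroblasts. *Tcf3* and *Tcf12* summed to 63.1 and 54.8 FPKM in uFIB and to 50.4 and 45.9 FPKM in SL at days 12 and 21. *Tal1* and *Lyl1* summed to 126 FPKM in SL at day 12 and 386 FPKM at day 21, of which *Tal1*, with vector transcripts included, was 62.0 and 347 FPKM. *Lyl1*, which is in no cocktail, was thus slightly above *Tal1* in SL at day 12 and far below it at day 21. *Id1* to *Id4* together lay between 137 and 182 FPKM over the 8 libraries, but the genes differed in direction. From uFIB to SL at day 12, *Id1* (25.9 to 76.5 FPKM) and *Id2* (19.8 to 42.3 FPKM) were called higher, and *Id3* (97.2 to 23.1 FPKM) and *Id4* (39.1 to 5.72 FPKM) lower.

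Likeness of pattern was measured as the lower of Pearson's r over the 6 stages and over the 8 libraries, on log2(FPKM + 1), among 8066 genes. These values are descriptions of few points, which within a table share the HP column or the SL and SFGL libraries as the high points. Among the genes closest to *Gata1* were *Klf1* (0.98) and *Epb4.2*, which encodes a protein of the red cell membrane skeleton. Closest to *Klf1* were *Mfsd2b*, *Gfi1b* and *Cpne7*, and closest to *Gfi1b* were *Mfsd2b*, *Klf1* and *Myb*. *Nfe2* was closest to *P2rx1*, *Tspan32* and *P2ry1*, of which *P2rx1* and *P2ry1* encode nucleotide receptors of platelets. *Zfpm1* was closest to the mitochondrial transporter gene *Abcb10*, then to *Cep128* and *Slc39a8*. The genes closest to *Lyl1* were *Samsn1*, *Tnfaip8* and *Tet3*. As deposited they were highest in MAC, at 14.4, 24.7 and 6.72 FPKM, with 11.1, 18.1 and 5.78 FPKM in HP. The upper quartile of genes above 0 was 18.0 FPKM in MAC and 10.8 FPKM in HP, so that this order depends on the scaling. No gene was as close to *Ldb1*, where *Frs2* had the highest value (0.87), followed by *Kansl1* and *Fam53c*. *Tcf3* was closest to *Psip1*, *Polr2b* and *Zfp207*, and *Tcf12* to *Zfp12*, *Atp2a2* and *Tdrd3*.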

How the data were processed

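The authors deposited FPKM values made with Cufflinks on mm10 (GRCm38). For the stages, uniquely aligned reads (SHRiMP, duplicates removed, RefSeq genes) gave 1 value per transcription start site and stage, with both samples combined. For the MEFs, TopHat and Cufflinks are named in the submitters' processing notes and each of the 8 libraries has a value per gene. Versions were not given in the sources used here. Of the 6 stage columns, 1 (HE) has no sample here, and it was used as the authors' value. Removing duplicates limits the highest values.

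FPKM was summed over start sites per gene and differences were taken on log2(FPKM + 1). With 1 column per stage the planned limma fit could not be made, and no p-value is given. Relative depth was taken from genes above 0 and under 0.3 FPKM both in a library and in uFIB at day 12. Of these genes, 15.1% to 19.2% lay at the most frequent ratio of the 2 values. That ratio was assumed to be the one of equal read counts. Reads could not be recovered, and depth is known only in relative terms. The counting of calls was tested on simulated data, which checks the arithmetic and not the reliability of a call. The members and lists were chosen with earlier results of these data known. Named genes were the members, up to 4 genes of a list by highest value (*Id2* among them), and the 3 genes nearest each member in pattern with at least 5 FPKM in a stage and a library, of which 1 is not reported here; *Fli1*, *Tal1*, *Gata2*, *Lmo2* and *Sfpi1* were named as cocktail genes or regulators. Alternatives were pseudocounts of 0.1 and 0.001, upper quartile scaling, a 4-fold limit, no limit or 5 FPKM as the limit on low values, the mean of both uFIB libraries, and the highest start site; those for the comparisons of days and of SFGL with SL were added after seeing the data. Python 3.11.15, NumPy 2.4.6, pandas 2.3.3 and matplotlib 3.10.9 were used.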

Additional observations from a re-analysis of the deposited data

Results flagged for a closer look

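In 3 members the library labelled FGL was above uFIB at day 12 and below it at day 21. The change on the log2(FPKM + 1) scale was 2.23 at day 12 and -0.0321 at day 21 in *Gata1*, 2.46 and -0.0594 in *Klf1*, and 2.70 and -0.309 in *Lyl1*. All of the day 21 changes lie between values under 1 FPKM, each day has 1 library per condition, and the difference between the days was not tested.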

How the results depend on the processing

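No called change was reversed under any alternative. Small changes that were not called changed sign, as in *Tcf3* of FGL (0.0083 to -0.0683) and *Tcf12* of SL (-0.0655 to 0.0315) between the days after upper quartile scaling, and in *Ldb1* of SFGL (0.0367 to below 0) and *Zfpm1* of FGL (0.185 to below 0) at day 21 against the mean of both uFIB libraries. The number of members highest in HP was 6 under each setting tried, the HE column left out included. Counts of members called changed where values were low or changes small. The 2 members called lower from ESC to MES became 0 at a 4-fold limit and 1 with 5 FPKM as the limit. From MES to HB the 2 called higher became 4 with a pseudocount of 0.1, 4 with 0.001 and 4 after upper quartile scaling, with *Gata1* and *Nfe2* added, and 1 at 4-fold or with 5 FPKM. From HB to HE the 2 called higher became 4 with a pseudocount of 0.1 or 0.001, with *Klf1* and *Gfi1b* added, and 1 at 4-fold or with 5 FPKM. In FGL the 6 called higher at day 12, and the 6 called lower from day 12 to day 21, became 3 with 5 FPKM as the limit. In SFGL the 3 called higher at day 21 than at day 12 became 0 at 4-fold. Other counts stayed within 1.5 times. No paired analysis was possible because the stage table combines its samples, and none could be left out. The MEF libraries carry no replicate numbers, and a fit that takes the days as blocks was not made, since it would count day 12 and day 21 as replicates. Depth in reads is unknown, and values near 0 carry the least certainty.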
